A study of Homo sapiens with 9 samples.

Results

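SCP51 and SCP58, lines each grown from 1 colorectal carcinoma cell, were compared together with the mixed population they came from, to find what both share against it. The comparison used all 9 arrays of the study, 6 of lines and 3 of the parent. The mean of the SCP51 mean and the SCP58 mean was set against the parent mean, gene by gene, on log2 signal. Of 19775 annotated genes, 13598 were tested, and the other 6177 were too dim to pass the filter, which asked for a signal over the array median on 3 or more arrays.

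The parent was SW480/EGFP, a human colorectal carcinoma line that expresses the fluorescent marker EGFP. SCP51 and SCP58 were progenies of single cells of this population and were cultured in the same medium. SCP51 was labelled high and SCP58 low in metastatic potential, after implantation of the cells into mice. RNA came from cultured cells, with 3 biological replicates of SCP51, 3 of SCP58 and 3 of the parent. Each metastatic class was 1 line, and each line descends from 1 cell. Neither number allows a statement about lines from single cells in general. The labels do not say when the replicate cultures were separated, so the p-values here reflect how the arrays scatter, which may be technical in part.

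A cultured carcinoma line is a mixture of cells whose expression differs, and a measurement on the population averages over them. A line expanded from 1 cell starts from the state and the genome of that cell, and passes on what is heritable through cell division. Both lines also went through isolation and regrowth from 1 cell, and in this design the effects of descent and of culture history cannot be told apart. In RNA from bulk culture, more cells expressing a gene and more RNA per cell cannot be told apart.

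Array medians lay between signals of 41.2 and 44.3. The mean signal, trimmed of its extremes, was 125 on SCP51 replicate 1 and 142 to 150 on the other arrays, and the signals were not rescaled. SCP51 replicate 1 stood apart, with correlations of 0.891 to 0.911 with the other 8 arrays across genes, against 0.945 to 0.979 among those 8 (genes are not independent replicates). Of 17 colorectal epithelial markers, 10 were above the array median on all 9 arrays, among them KRT8, KRT18, KRT19, EPCAM and CDH1. The filter was passed by 13 of the 17 and by 13598 of 19775 annotated genes, so these counts alone do not identify the cells. Group signals of KRT8, KRT18 and KRT19 were 4900 to 6590, and those of CDX2, CEACAM5 and CEACAM6 were 50.4 to 61. The differentiation markers KRT20, FABP1, TFF3 and LGALS4 were under the median on all 9. The summed signal of the 17 markers was 19278 to 24804 in SCP51, 19584 to 21554 in SCP58 and 20327 to 21417 in the parent. The summed signal of 10 fibroblast markers was 426 to 465, 446 to 516 and 513 to 559 in the same order, with 1 of the 10, COL1A1, above the median on all 9 arrays, PDGFRA and DCN above it on 8, and 5, among them COL3A1 and LUM, above it on none. That of 9 leukocyte markers was 493 to 632, 592 to 707 and 640 to 792, with CD3E, CD3D and CD79A above the median on all 9 arrays, CSF1R on 8, and 4, namely PTPRC, MS4A1, CD14 and LYZ, on none. In both of these lists the ranges of SCP58 overlapped those of another group, and those of SCP51 lay below those of the parent. The summed signal of 5 neuroendocrine markers was 186 to 209 in SCP51, 179 to 210 in SCP58 and 231 to 301 in the parent, so that both lines lay below the parent without overlap. The secretogranin SCG2 was at -1.18 (adjusted p = 0.0602) in that list, and the other 4 were at -0.13 to 0.03, with CHGB and INSM1 under the median on all 9 arrays. The summed signal of 7 endothelial markers was 227 to 325 in SCP51, 248 to 301 in SCP58 and 245 to 273 in the parent, so that the groups overlapped. CDH5, CLDN5 and EMCN were at 0.46, 0.46 and 0.58, and above the median on 0, 2 and 1 arrays. PECAM1, KDR, VWF and TEK were at -0.18 to 0.02. No fibroblast, leukocyte, neuroendocrine or endothelial marker was called. The part of these lists in the results below was not tested.

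Both lines had more mRNA than the parent for the polarity scaffold PALS1, the homeobox genes HOXB3 and HOXB8 and the matrix proteoglycan VCAN. Both had less for the hyaluronan synthase HAS3 and the receptor subunit NETO2. In these 6 genes the mean differences were 3.37-fold to 12.2-fold upwards and 2.35-fold and 5.71-fold downwards. The cancer-testis antigens SSX1 and SSX3 and the calpain CAPN6 were also called lower, but their signals were under the array median in the lines, and they were tested only because the parent arrays passed the filter. The lines differed from the parent in 87 genes, 0.64% of those tested, at a limma adjusted p under 0.05. Of these, 58 were higher in the lines (0.427%) and 29 lower (0.213%), and 36 differed at least 2-fold. In 10 of the 58 the parent was under the array median on all 3 parent arrays. These 10 were tested only because line arrays passed the filter, HOXB8, HOXB4, GLIS3, EFNA5, NPNT, CYP24A1, ACAN and CRIM1-DT among them. At an unadjusted p under 0.05 there were 1523 genes. For 86 of the 87 genes both line means lay on the same side of the parent mean, and for 76 all 6 line arrays lay beyond all 3 parent arrays. Over all genes tested, 725 (5.33%) had groups that did not overlap in this way, 341 (2.51%) with the lines above and 384 (2.82%) with the lines below. The number of calls depended on single arrays. It was 203 without SCP51 replicate 1, and 83 of the 87 genes were among those. It was 57 without SCP51 replicate 2, 50 and 53 without SCP58 replicates 2 and 3, and 16, 27 and 24 without SW480/EGFP replicates 1, 2 and 3. Without SCP51 replicate 3 the split turned to 35 higher and 61 lower.

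The difference between the SCP51 and SCP58 means uses no parent array, and as an estimate it is orthogonal to the first in this balanced design. Its SE and p do use the parent arrays, because the variance of each gene was fitted over all arrays. Both contrasts share that variance, so calls in one are not independent of calls in the other. The contrast of SCP51 with SCP58 tested which genes that differed from the parent also differed between the lines. It called 555 genes (4.08% of those tested). Among the 87 genes, 38 were also called between the lines and 49 were not, 35 of the 49 higher and 14 lower than the parent. All 49 had line arrays that did not overlap the parent arrays. Not being called between the lines does not show that a gene is equal in them. The count of 38 was 109 without SCP51 replicate 1, 17 and 58 without replicates 2 and 3, 19 and 15 without SCP58 replicates 2 and 3, and 11, 14 and 14 without SW480/EGFP replicates 1, 2 and 3.

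**Figure D1:**
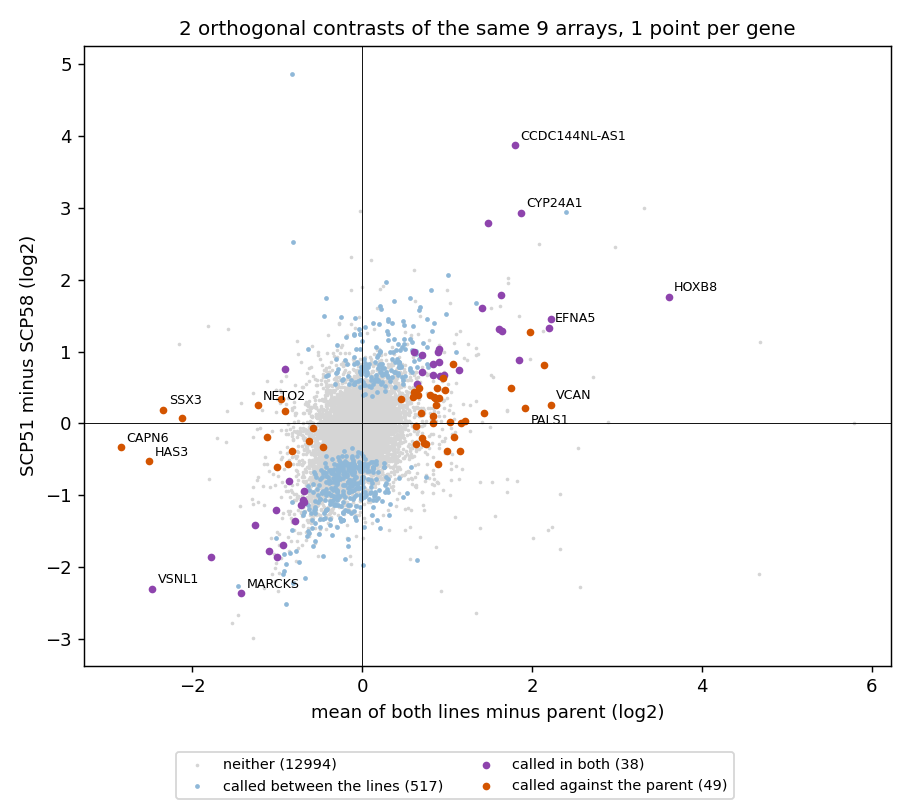
Each point is 1 of the 13598 genes, with the mean of both lines minus the parent on the horizontal axis and SCP51 minus SCP58 on the vertical axis, in log2 units. The 49 genes called only against the parent (orange) lie along the horizontal axis, the 38 called in both contrasts (purple) lie mainly along the diagonal on which SCP51 is the farther line, and 517 were called between the lines alone (blue).

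In a further fit, the arrays of a line were allowed to share a deviation. With the 6 line arrays as 1 group and the cell line as a random block, at a consensus correlation of 0.15, 7 genes were called (0.0515% of those tested). These were PALS1 and HOXB3, higher in the lines, and NETO2, SSX1, SSX3, HAS3 and CAPN6, lower in the lines. SSX1, SSX3 and CAPN6 entered this fit through the parent arrays alone. With 2 lines and 1 parent population the fit still takes its degrees of freedom from the arrays, so the calls do not extend to lines in general. None of the 7 was called between SCP51 and SCP58.

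**Figure D2:**
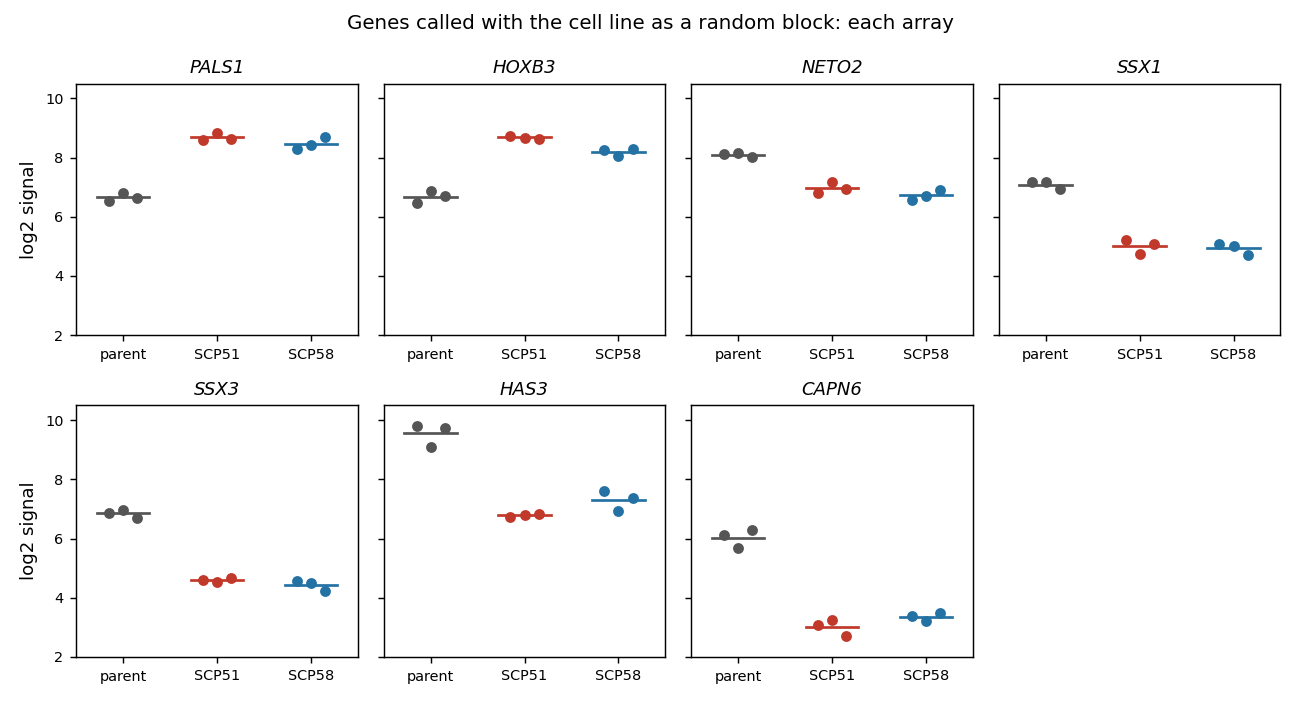
Log2 signal on each array for the 7 genes called with the cell line as a random block, with a bar at each group mean; each panel is 1 gene, and levels are not comparable between panels. In every panel the 6 line points form a band that does not overlap the 3 parent points, as for PALS1 at 8.29 to 8.83 in the lines and 6.53 to 6.80 in the parent.

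PALS1 encodes a scaffold protein of the Crumbs complex, which sets apical polarity in epithelial cells. Its log2 signal was 8.59, 8.83 and 8.64 on the SCP51 arrays, 8.29, 8.43 and 8.69 on the SCP58 arrays and 6.53, 6.80 and 6.65 on the parent arrays. The arrays of the lines overlapped each other and stood clear of the parent. The difference was 1.92 ± 0.12 (SE, n = 6 line and 3 parent arrays), a 3.78-fold rise (adjusted p = 0.00056), and a second probe set had the same sign. Each line had its own difference of 2.03 and 1.81 ± 0.14 (SE, n = 3 per group). Other genes of the complex, looked at after the values were seen, were not called: CRB3 was at -0.16, PATJ at -0.32, LIN7A at 0.45, LIN7B at -0.17 and LIN7C at -0.03.

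The SSX genes encode nuclear cancer-testis antigens, which are expressed in testis and in some tumours. SSX1 was at 5.22, 4.75 and 5.07 in SCP51, 5.07, 5.01 and 4.72 in SCP58 and 7.17, 7.16 and 6.94 in the parent. SSX3 was at 4.61, 4.52 and 4.68, then 4.55, 4.49 and 4.21, and in the parent at 6.86, 6.98 and 6.70. All 6 line arrays were under the array median for both genes, so both passed the filter through the parent arrays alone. Without the filter both kept their calls. SSX3 fell by 2.34 ± 0.12 on the log2 scale (adjusted p = 0.000262) and SSX1 fell by 2.12 ± 0.14 (adjusted p = 0.00056). Their probe sets carry the suffix _x_at, which marks probes that can match related sequences, so signals of near-identical SSX copies cannot be told apart. The other 2 probe sets of SSX3 that passed were at -4.44 and -1.65. A second SSX1 probe set, without that suffix and too dim to pass the filter, was at 0.62. Of 9 cancer-testis antigens tested, SSX1 and SSX3 were the 2 called, while 0.213% of all genes were called lower. Since both entered through the parent arrays and may not be separate signals, this count is no result about the list. The median of the 9 was -0.15, against -0.05 over all genes. The brightest others, MAGEB2 and MAGEA6, were at 0.01 and -0.27.

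CAPN6, a calpain relative without the catalytic cysteine, was at 3.09, 3.24 and 2.72 in SCP51, at 3.38, 3.20 and 3.48 in SCP58 and at 6.11, 5.67 and 6.29 in the parent. It too was under the array median on all 6 line arrays and passed the filter through the parent. The gene fell by 2.84 ± 0.19 (adjusted p = 0.00056), but with 32 added to each signal before log2 the difference was -1.24. Without a filter a brighter probe set stood for CAPN6, at -0.30, and the call was lost (adjusted p = 0.503). Over all its alternatives the adjusted p of CAPN6 ran from 2.9e-05 to 0.503. With any parent array left out, CAPN6, SSX1 and SSX3 no longer passed the filter.

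HAS3 encodes a synthase of hyaluronan, the large polysaccharide of the pericellular matrix. It was at 6.73, 6.78 and 6.83 in SCP51, 7.61, 6.92 and 7.38 in SCP58 and 9.82, 9.09 and 9.75 in the parent. The lowest parent array was thus well above the highest line array. HAS3 fell by 2.51 ± 0.20 (5.71-fold, adjusted p = 0.00107). A second HAS3 probe set gave -0.05, and the mean of both gave -1.28 (adjusted p = 0.00278). Of other hyaluronan genes, HAS2 did not pass the filter, and the receptor CD44, at -0.32 (adjusted p = 0.302), and the hyaluronidase HYAL2, at 0.01, were not called.

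NETO2, an auxiliary subunit of kainate receptors, was at 6.81, 7.19 and 6.93 in SCP51, 6.56, 6.71 and 6.92 in SCP58 and 8.11, 8.15 and 8.01 in the parent. The parent arrays lay close together and above every line array. NETO2 fell by 1.23 ± 0.12 (adjusted p = 0.00375), with differences of -1.11 in SCP51 and -1.36 in SCP58. PALS1, HAS3 and NETO2 were the 3 of the 87 genes called in each of the 21 alternative fits.

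The promoters of 4 of these genes, from RefSeq on GRCh38.p14, are shown for their low or high number of CG dinucleotides, the sites of DNA methylation in mammals. That of HAS3, between them at 18 CG, is not shown. PALS1 was higher in both lines, and SSX1, CAPN6 and NETO2 were lower in both. Each entry gives the 250 bases before the start of the gene, 5′ to 3′ on its own strand, with every CG in capitals.
SSX1, chrX:48255142-48255391, plus strand: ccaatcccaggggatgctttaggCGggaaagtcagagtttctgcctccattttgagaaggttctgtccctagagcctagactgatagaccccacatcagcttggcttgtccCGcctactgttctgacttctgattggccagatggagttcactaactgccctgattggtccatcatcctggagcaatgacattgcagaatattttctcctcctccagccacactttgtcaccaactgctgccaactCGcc
CAPN6, chrX:111270484-111270733, minus strand: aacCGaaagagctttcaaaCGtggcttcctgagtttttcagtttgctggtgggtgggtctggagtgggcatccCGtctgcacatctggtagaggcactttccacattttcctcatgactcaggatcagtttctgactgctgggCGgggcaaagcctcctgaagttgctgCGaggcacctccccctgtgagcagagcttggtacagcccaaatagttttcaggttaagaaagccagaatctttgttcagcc
PALS1, chr14:67241185-67241434, plus strand: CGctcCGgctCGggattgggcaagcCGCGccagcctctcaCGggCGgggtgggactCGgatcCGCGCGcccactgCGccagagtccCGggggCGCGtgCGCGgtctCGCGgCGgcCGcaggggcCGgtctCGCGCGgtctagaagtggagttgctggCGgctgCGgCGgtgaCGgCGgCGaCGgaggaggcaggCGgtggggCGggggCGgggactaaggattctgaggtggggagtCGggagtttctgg
NETO2, chr16:47143946-47144195, minus strand: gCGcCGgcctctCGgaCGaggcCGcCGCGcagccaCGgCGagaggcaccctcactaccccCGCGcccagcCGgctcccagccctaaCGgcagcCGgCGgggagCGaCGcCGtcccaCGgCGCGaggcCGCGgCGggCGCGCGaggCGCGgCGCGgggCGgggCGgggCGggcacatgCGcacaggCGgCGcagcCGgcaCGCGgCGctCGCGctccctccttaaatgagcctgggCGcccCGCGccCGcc

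The SSX1 promoter held 3 CG dinucleotides and that of CAPN6 held 5. Among 7821 tested genes with 1 promoter in the table, the median was 21, and 7.7% held as few as SSX1 or fewer and 11.4% as few as CAPN6 or fewer. PALS1 held 36 and NETO2 47, and 93.6% and 99.7% of promoters held as many or fewer. HAS3 held 18. The motif TATAAA, searched on both strands, was in none of these 5 promoters and in 6.01% of all. A CG reads the same on both strands and cannot overlap TATAAA. Over the called genes with 1 promoter, the median was 24 CG for 28 higher genes and 20.5 for 12 lower genes, on either side of the median over all. Methylation was not measured, and these counts are a description of the sequence.

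HOX genes encode transcription factors that specify position along the body axis, and those of the HOXB cluster lie side by side on chromosome 17. Of 19 HOX genes tested, 10 were HOXB genes, and 3 of these rose in the lines, while 0.427% of all genes did. Of the 3, HOXB8 and HOXB4 were tested only because line arrays passed the filter, so this share is only a description. The list was chosen with earlier results known. The median of the 19 was 0.01. HOXB3 was at 8.74, 8.67 and 8.63 in SCP51, 8.24, 8.06 and 8.28 in SCP58 and 6.46, 6.88 and 6.71 in the parent. Both lines were above the parent on every array, at a difference of 1.75 ± 0.12 (adjusted p = 0.00056). A second HOXB3 probe set gave -0.26, and the mean of both gave 0.74 (adjusted p = 0.113), the alternative that ended the call.

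HOXB8 had the largest difference among the 87 genes. Its log2 signal was 9.06, 9.33 and 9.50 in SCP51, 8.30, 7.19 and 7.11 in SCP58 and 4.50, 5.05 and 4.86 in the parent, where it was under the array median. The groups did not overlap, and SCP58 lay between SCP51 and the parent. The difference was 3.61 ± 0.27 (12.2-fold, adjusted p = 0.000797), or 2.66 with 32 added to each signal. SCP51 exceeded SCP58 by 1.76 ± 0.31 (adjusted p = 0.0215), and with the line as a random block HOXB8 was not called (adjusted p = 0.119, within a range of 2.3e-05 to 0.119 over its alternatives). A second HOXB8 probe set, too dim to pass the filter, was at 0.56.

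HOXB4 was at 6.55, 6.42 and 6.46 in SCP51, 6.09, 5.60 and 5.77 in SCP58 and 5.35, 5.20 and 5.15 in the parent. Its parent level was under the array median, so HOXB4 was tested only because line arrays passed the filter. It showed the order of HOXB8 on a smaller scale, with a difference of 0.92 ± 0.12 (adjusted p = 0.016) and SCP51 above SCP58 (adjusted p = 0.04). It lost its call without any 1 of the parent replicates (adjusted p = 0.0942, 0.0897 and 0.0982). HOXB6, between HOXB8 and HOXB4 in the cluster, had 6 line arrays above the parent arrays but was not called, at 1.10 ± 0.19 (adjusted p = 0.0559). HOXB2, at 0.55 (adjusted p = 0.108), was likewise separated and not called. HOXB1, HOXB7, HOXB9 and HOXB13 were at -0.10, 0.26, 0.40 and 0.01. HOXB5 could not be judged, since SCP51 replicate 1 was at 5.29 and replicates 2 and 3 at 8.45 and 8.61.

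**Figure D3:**
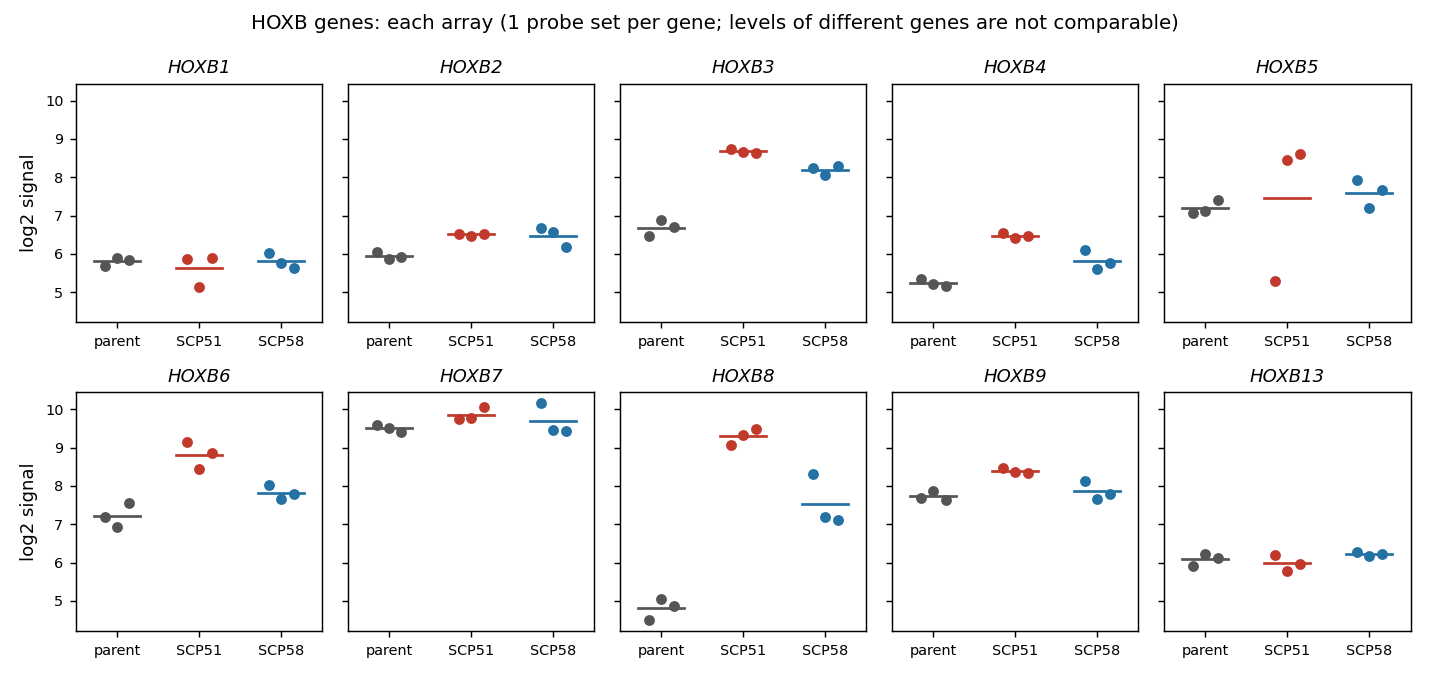
Log2 signal of the 10 HOXB genes tested on each array, with a bar at each group mean; levels are not comparable between panels. HOXB8, HOXB3 and HOXB4 have all line points above the parent points and were called, HOXB6 and HOXB2 are separated but were not called, and for HOXB5 the array SCP51 replicate 1 lies at 5.29.

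Genes that were higher than the parent on all 6 line arrays and were not called between the lines included VCAN, ACAN, NPNT and ITGB8. VCAN, the matrix proteoglycan versican, was at 8.88, 9.50 and 9.13 in SCP51, 9.40, 8.20 and 9.13 in SCP58 and 6.79, 6.74 and 6.93 in the parent. Every line array exceeded every parent array, the difference was 2.22 ± 0.26 (adjusted p = 0.0089), and all 5 VCAN probe sets that passed had the same sign, from 1.76 to 2.38. ACAN, the related proteoglycan aggrecan, rose by 1.21 ± 0.16 (adjusted p = 0.0157) from a parent level under the array median. Its probe set carries the suffix _x_at, and the other ACAN probe sets, too dim to pass the filter, were at 0.0, -0.08 and 0.43. The ACAN rise thus rests on 1 probe set that can match related sequences. HSPG2 and BCAN, other proteoglycans of this kind, were at 0.14 and -0.13 and were not called. NPNT, which encodes the integrin ligand nephronectin, was at 6.37, 6.50 and 6.14, then 5.43, 5.18 and 5.97, and in the parent at 3.64, 3.43 and 4.30, a rise of 2.14 ± 0.23 (adjusted p = 0.00657), or 2.55 in SCP51 and 1.74 in SCP58. With 32 added to each signal the NPNT difference was 1.03, and its parent level was under the array median. ITGB8, the integrin subunit that pairs with alpha V, was at 7.02, 7.87 and 8.32 in SCP51, 6.51, 6.01 and 6.87 in SCP58 and 5.48, 4.50 and 5.39 in the parent. SCP51 differed from the parent by 2.61 and SCP58 by 1.34, and the gap of 1.27 ± 0.39 between them was not called (adjusted p = 0.105). The ITGB8 rise of 1.98 ± 0.33 was close to the threshold (adjusted p = 0.0455), and the mean of its probe sets, 1.07, was not called. ITGB8 was the 1 gene called of 18 in the list of integrins and matrix adhesion, whose median was 0.13, and the brightest member, ITGB1, was at 0.16.

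Single parent arrays bore on several of these calls. Without SW480/EGFP replicates 1, 2 and 3 in turn, the adjusted p was 0.0936, 0.0656 and 0.0587 for VCAN and 0.112, 0.0656 and 0.0926 for ACAN. NPNT lost its call without SW480/EGFP replicate 1 (adjusted p = 0.0778). For ITGB8, leaving out any array except SCP51 replicate 1 ended the call, at 0.0537 to 0.185. The highest value over all alternatives was 0.0936 for VCAN, 0.112 for ACAN, 0.119 for NPNT and 0.695 for ITGB8.

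Of the same kind were TIAM1, KLF2, HDAC9 and CRIM1-DT. TIAM1, an exchange factor that activates the GTPase Rac, was at 9.81, 9.56 and 9.39 in SCP51, 9.59, 9.09 and 9.67 in SCP58 and 7.69, 8.29 and 8.28 in the parent, a rise of 1.43 ± 0.19 (adjusted p = 0.0171), though the mean of its probe sets was 0.78 and was not called. KLF2, a zinc finger transcription factor, rose by 1.16 ± 0.18 (adjusted p = 0.033), with nearly equal differences of 1.16 and 1.15 in SCP51 and SCP58. HDAC9, a class IIa histone deacetylase, rose by 1.08 ± 0.18 (adjusted p = 0.0471), but the mean of its 2 probe sets was 0.49 and was not called. CRIM1-DT, a transcript divergent from CRIM1, was at 1.15 ± 0.19 (adjusted p = 0.0409), from a parent level under the array median. That call rested on the choice of probe set: the other one became the brighter with SCP51 replicate 1 left out, and the difference was then 0.26. Of these 4 genes, TIAM1 lost its call without each parent replicate in turn (adjusted p = 0.108, 0.068 and 0.0734) and KLF2 without each (0.164, 0.167 and 0.142), without SCP51 replicate 2 (0.0835) and without SCP58 replicate 3 (0.0791). HDAC9 lost its call without any array other than SCP51 replicate 1 and SW480/EGFP replicate 2 (0.0586 to 0.25). CRIM1-DT lost its call without any other than SCP51 replicate 2 (0.0593 to 0.597). Their highest adjusted p over all alternatives were 0.119, 0.206, 0.343 and 0.597.

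Among genes that fell and were not called between the lines, BAMBI, a decoy receptor that dampens TGF-beta and BMP signalling, was at 6.86, 7.02 and 7.03 in SCP51, 6.62, 6.63 and 6.66 in SCP58 and 7.65, 7.95 and 7.66 in the parent. It fell by 0.95 ± 0.10 (adjusted p = 0.00595) and kept its call with any 1 array left out. BAMBI was the 1 called gene of 18 TGF-beta and BMP genes, whose median of 0.14 had the opposite sign. PWWP3B, which encodes a protein with a PWWP domain, was at 6.91, 6.67 and 6.77, then 7.03, 6.94 and 6.96, and in the parent at 8.26, 7.66 and 8.08, and it fell by 1.12 ± 0.14 (adjusted p = 0.0114). SLC16A9, of the monocarboxylate transporter family, fell by 1.0 ± 0.13 (adjusted p = 0.0157), at -1.30 in SCP51 and -0.70 in SCP58. GRB10, an imprinted adaptor protein gene that restrains insulin receptor signalling, fell by 0.91 ± 0.15 (adjusted p = 0.039) and was the 1 called of 14 imprinted genes. The mean of the GRB10 probe sets, -0.57, was not called. STAMBPL1, a deubiquitinase, fell by 0.87 ± 0.13 (adjusted p = 0.0307), at -1.16 in SCP51 and -0.59 in SCP58. The gap between the lines had an adjusted p of 0.0616 for SLC16A9 and 0.081 for STAMBPL1.

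PWWP3B lost its call without SW480/EGFP replicates 1 and 3 (adjusted p = 0.0844 and 0.0862), and SLC16A9 without replicates 1, 2 and 3 (0.115, 0.0591 and 0.0926). GRB10 lost its call without any array other than SCP51 replicate 1 (0.052 to 0.169). STAMBPL1 lost its call without any other than SCP51 replicates 1 and 3 (0.0545 to 0.177). Over all alternatives the adjusted p reached 0.104, 0.452, 0.309 and 0.647 for the 4 genes, and 0.119 for BAMBI.

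In the 38 genes called in both contrasts, SCP51 was the line farther from the parent in 37. The exception was NDUFAF2, an assembly factor of respiratory complex I, at -0.53 in SCP51 and -1.29 in SCP58 (named after its values were seen). It lost its call without SW480/EGFP replicates 1, 2 and 3 (adjusted p = 0.112, 0.0786 and 0.0926, against 0.0157 with all arrays). For 11 of the 38 the line arrays overlapped the parent arrays, and these are differences of SCP51 more than of both lines. CCDC144NL-AS1, an antisense transcript, was the extreme, at 3.74 in SCP51 and -0.13 in SCP58, and it passed the filter through the SCP51 arrays alone, so that with 1 of them left out it was not tested.

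Genes that were graded, with SCP58 between the parent and SCP51, included INPP4B, a phosphatase of phosphoinositides. It was at 8.17, 8.20 and 7.99 in SCP51, 7.33, 7.05 and 7.33 in SCP58 and 5.57, 5.88 and 6.02 in the parent, and no groups overlapped. The difference from the parent was 1.85 ± 0.13 (adjusted p = 0.00056), and SCP51 exceeded SCP58 by 0.88 ± 0.15 (adjusted p = 0.0189). The relatives INPP4A and INPP5D were at 0.45 and 0.08 and were not called. EFNA5, an ephrin ligand, was at 6.96, 7.35 and 7.28, then 5.95, 5.62 and 6.04, and in the parent at 4.02, 4.59 and 4.40, a rise of 2.20 ± 0.16 (adjusted p = 0.000797). The parent level of EFNA5 was under the array median, and with 32 added to each signal the difference was 1.28. Without SCP51 replicate 3 another EFNA5 probe set became the brightest, and the difference was 0.09 (adjusted p = 0.821, the highest of its alternatives, whose lowest was 3.8e-05). GLIS3, a zinc finger transcription factor, rose by 2.23 ± 0.22 (adjusted p = 0.00375), or 1.28 with 32 added to each signal, from a parent level under the array median, and DCLK1, a kinase known as a tuft cell and tumour-initiating cell marker, by 1.61 ± 0.14 (adjusted p = 0.00148). Both kept their calls with any 1 array left out, and the mean of the GLIS3 probe sets was 1.42. With the line as a random block, GLIS3, DCLK1 and INPP4B were not called (adjusted p = 0.404, 0.638 and 0.115). DCLK1 was the 1 called of 16 stem and tumour-initiating cell markers, whose median was -0.07.

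VSNL1, the neuronal calcium sensor visinin-like 1, was at 5.20, 5.42 and 5.68 in SCP51, 8.0, 7.45 and 7.75 in SCP58 and 9.31, 8.61 and 9.25 in the parent. The 3 groups were again in steps, and VSNL1 fell by 2.47 ± 0.20 (adjusted p = 0.00107). S100A14, a calcium-binding protein of epithelia, was at 8.24, 7.75 and 8.08, then 9.95, 10.0 and 9.71, and in the parent at 10.49, 11.02 and 10.69, and fell by 1.78 ± 0.16 (adjusted p = 0.00198). In both genes SCP58 lay on the side of the parent.

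In 5 genes SCP51 carried most of the difference from the parent. MARCKS, an actin-binding protein that protein kinase C phosphorylates, was at 6.50, 6.63 and 6.13 in SCP51, 8.85, 8.66 and 8.83 in SCP58 and 8.95, 9.01 and 9.10 in the parent, so that SCP58 differed from the parent by -0.24 and SCP51 by -2.60 (± 0.15, SE). CYP24A1, the enzyme that degrades active vitamin D, was at 8.13, 8.62 and 8.37 in SCP51, 5.84, 4.87 and 5.64 in SCP58 and 5.23, 4.63 and 5.26 in the parent. SEMA3A, a secreted semaphorin, was at 7.81, 8.89 and 8.40, then 5.38, 5.34 and 6.03, and in the parent at 5.50, 5.30 and 5.67. In CYP24A1 and SEMA3A the SCP58 and parent arrays overlapped. The parent level of CYP24A1 was under the array median. PPP1R16A, a regulatory subunit of protein phosphatase 1, and NSMCE1-DT, a divergent transcript, were at -1.97 and -1.98 in SCP51 and at -0.56 and -0.20 in SCP58. MARCKS kept its call with any 1 array left out. PPP1R16A, at -1.26 ± 0.19 for both lines (adjusted p = 0.0276), was not called without any 1 parent replicate, nor without replicate 2 of SCP51 or 3 of SCP58 (0.0701 to 0.17). NSMCE1-DT, at -1.09 ± 0.15 (adjusted p = 0.0171), lost its call without SCP58 replicates 2 and 3 and SW480/EGFP replicates 1 and 3 (0.0523 to 0.103). The difference of both lines from the parent was 1.87 ± 0.24 for CYP24A1 (adjusted p = 0.0157), 1.48 ± 0.25 for SEMA3A (adjusted p = 0.0424) and -1.42 ± 0.13 for MARCKS (adjusted p = 0.00227). The adjusted p of CYP24A1 was 0.0942, 0.0775 and 0.0623 without the parent replicates 1, 2 and 3, and that of SEMA3A was 0.0621 to 0.214 without any array other than SCP51 replicate 1. With the line as a random block all 5 were at 0.973, the highest of their alternatives.

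**Figure D4:**
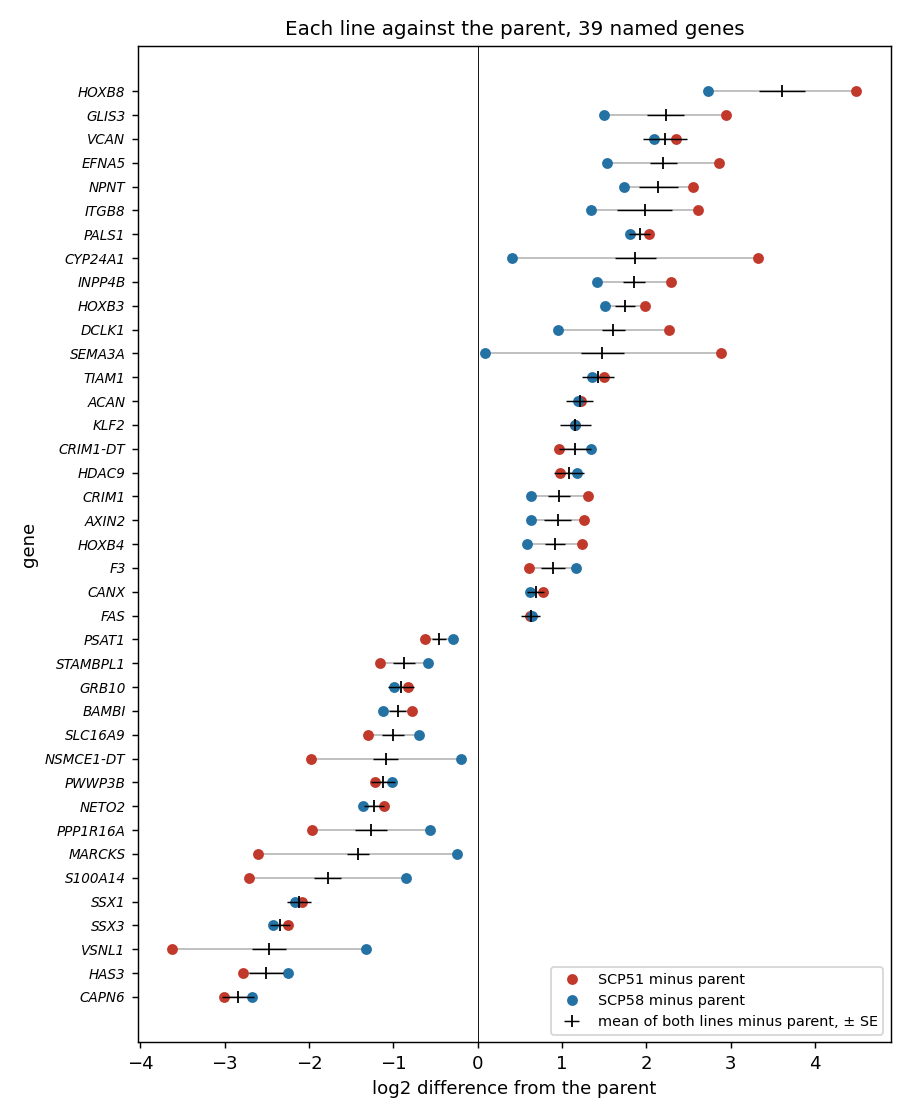
Log2 difference from the parent of SCP51 (red) and SCP58 (blue) for the 39 genes chosen by the naming rule, with the mean of both lines and its SE (black); a grey bar joins the lines. For PALS1 the lines lie at 2.03 and 1.81, for HOXB8 at 4.49 and 2.73, and for SEMA3A at 2.88 and 0.09.

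Of the 555 genes called between SCP51 and SCP58, the parent mean lay between the line means in 427 (76.9%), above both in 62 and below both in 66. Over all genes that share was 39.5%, and a wide gap between the lines makes it likelier by construction. The parent was nearer SCP58 in 439 of the 555 (79.1%) and nearer SCP51 in 116, and over all genes it was nearer SCP58 in 65.1%. The median difference from the parent over all genes was -0.10 in SCP51 and 0.0 in SCP58. For the 555 the parent lay at a median position of 0.24 on a scale from 0 at SCP58 to 1 at SCP51. The 38 genes called in both contrasts were 6.85% of these 555 and 43.7% of the 87. Against the parent alone, SCP51 differed in 402 genes (2.96%) and SCP58 in 19 (0.14%); both comparisons use the same 3 parent arrays. The count of 555 was 1189 and 183 without SCP51 replicates 1 and 2, 344, 137 and 171 without replicates 1, 2 and 3 of SCP58, and 326 and 254 without SW480/EGFP replicates 1 and 3.

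The 36 gene lists were chosen with earlier results of these data known, so their counts are a description. Of 625 list members tested, 19 were called (3.04%, against 0.64% of all genes), in 13 of the lists. The 23 lists without a call are not a result, since at that background few calls would fall in a list of this size. Among the 33 lists with at least 5 genes tested, the highest median was that of the targets of YAP and TEAD, transcriptional regulators of growth and adhesion, at 0.25, with 15 of 21 genes above 0. Called among them were CRIM1, a transmembrane BMP antagonist, at 0.97 ± 0.13 (adjusted p = 0.016), and F3, tissue factor, at 0.89 ± 0.14 (adjusted p = 0.033). CRIM1 lost its call without the parent replicates 1, 2 and 3 (adjusted p = 0.112, 0.0731 and 0.0593) and F3 without any array other than SCP51 replicate 1 (0.0557 to 0.158). Over their alternatives the adjusted p reached 0.638 and 0.647. The lowest median among those 33 was that of DNA replication and G1/S genes, at -0.24, with 35 of 36 below 0 and none called. The 3 fibroblast markers tested had the same median, -0.24. After either of 2 rescalings (quantiles, or the 75th percentile), 33 of the 36 remained below 0. The brightest of them, RRM2 and PCNA, were both at -0.07 and were not called. Mitotic genes did not share this, with a median of 0.01. The 24 cytosolic ribosomal protein genes were all below 0 at a median of -0.12, but 3 were above 0 after either rescaling. The median over all genes was -0.05, with 5357 genes above 0 and 8241 below.

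Lists on cell state moved little. Of 9 genes of the epithelial-mesenchymal transition 6 were above 0 at a median of 0.16, with vimentin (VIM) at 0.66 (adjusted p = 0.182) and none called. The 22 epithelial junction genes had a median of 0.01 and none called. Of 12 Wnt and beta-catenin targets, AXIN2, a feedback inhibitor of the pathway, rose by 0.95 ± 0.16 (adjusted p = 0.0435), but the mean of its 3 probe sets was 0.38 and was not called (adjusted p = 0.201). Of 19 p53 targets, the death receptor FAS rose by 0.63 ± 0.11 (adjusted p = 0.0435). The p53 list median was 0.16, but -0.09 in SCP51 and 0.21 in SCP58. In the unfolded protein response, the chaperone CANX rose by 0.69 ± 0.10 (adjusted p = 0.0248) and the serine synthesis enzyme PSAT1 fell by 0.46 ± 0.08 (adjusted p = 0.0437), in a list with a median of -0.18. Hypoxia and glycolysis genes were below 0 in 30 of 34, at a median of -0.15, led by SCP58 (-0.25 against -0.01 in SCP51), and none was called. AXIN2 lost its call without SW480/EGFP replicates 1, 2 and 3 and SCP58 replicates 1, 2 and 3 (adjusted p = 0.0842 to 0.244). FAS lost its call without any array other than SCP51 replicate 1 and SCP58 replicate 1 (0.0791 to 0.245), and PSAT1 without any other than SCP51 replicate 1 (0.0605 to 0.221). CANX lost its call without the parent replicates 1, 2 and 3 and SCP58 replicate 2 (0.057 to 0.167). Over all alternatives the adjusted p reached 0.739, 0.343, 0.846 and 0.305 for AXIN2, FAS, PSAT1 and CANX.

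**Figure D5:**
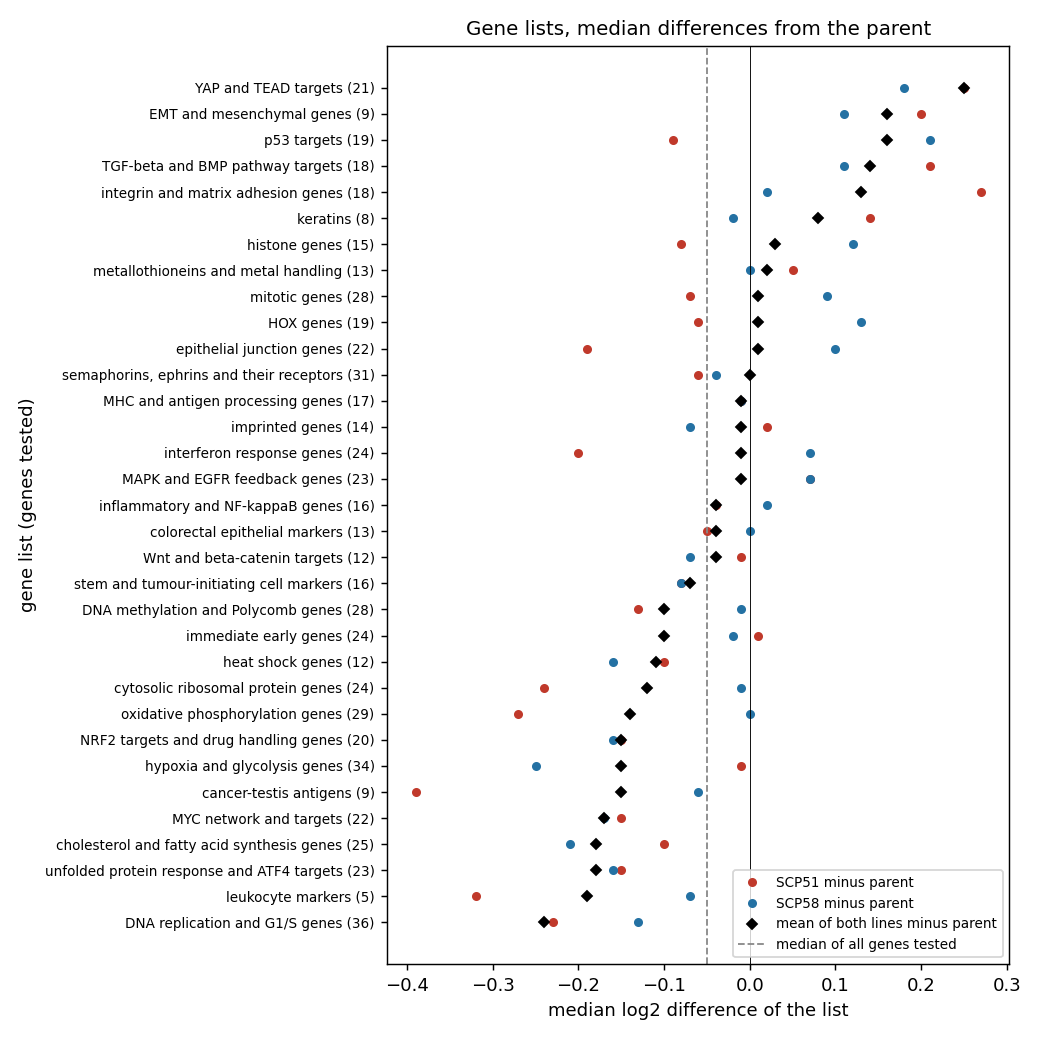
Median log2 difference from the parent of the 33 lists with at least 5 tested genes, for SCP51 (red), SCP58 (blue) and their mean (black); the dashed line is the median of all genes tested. Medians run from -0.24 for DNA replication and G1/S genes to 0.25 for YAP and TEAD targets.

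The chromosomes of the called genes were looked at after the calls were made. Of the 29 lower genes 5 lay on the X chromosome (17.2%, against 3.08% of genes tested): CAPN6, SSX1, SSX3, PWWP3B and PLAC1. PLAC1, a placental and tumour antigen, was at 6.47, 6.51 and 6.55 in SCP51, 6.55, 6.56 and 6.59 in SCP58 and 7.10, 7.17 and 7.08 in the parent, for a difference of -0.58 ± 0.08 (adjusted p = 0.016). None of these 5 was called between the lines. CAPN6, SSX1 and SSX3 were tested only through the parent arrays, and the SSX1 and SSX3 signals may not be separate, so this count supports no statement about the X chromosome. Another 6 lay on chromosome 8 (20.7%, against 3.47%), namely PPP1R16A, CTHRC1, CA2, CHD7, MAL2 and GRHL2, and all 6 were called between the lines. In these, SCP51 was at -1.26 to -1.97 and SCP58 at -0.06 to -0.56. The median over all 472 genes tested on chromosome 8 was -0.26 in SCP51 and 0.0 in SCP58. CA2 lost its call against the parent without any array other than SCP51 replicate 1 (adjusted p = 0.0662 to 0.157), GRHL2 without any other than SCP51 replicate 1 and SCP58 replicate 3 (0.0559 to 0.183) and MAL2 without each parent replicate (0.0581 to 0.0936). CTHRC1 lost it without SW480/EGFP replicates 1 and 3 (0.0642 and 0.0501) and CHD7 without SW480/EGFP replicates 1 and 2 (0.098 and 0.0637). PPP1R16A was at 0.0701 to 0.17 without SCP51 replicate 2, SCP58 replicate 3 or any parent array. Chromosome 16 held 4 of the lower genes (13.8%, against 4.7%). Among the 58 higher genes, 8 were on chromosome 17 (13.8%, against 6.19%), 3 of them HOXB genes, and 7 on chromosome 7 (12.1%, against 4.68%). The number of genes per chromosome was small, and no test was made. PLAC1 lost its call without the parent replicates 1, 2 and 3 (adjusted p = 0.112, 0.087 and 0.0926) and without SCP58 replicate 2 (0.0539).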

How the data were processed

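The authors deposited 1 table with an intensity on a linear scale for 54675 probe sets on each of 9 Affymetrix arrays, for which the submitters' processing notes name GCOS 1.4. How the arrays were scaled and probes summarised is not given in the sources used here. The deposited signals were floored at 1 (514 values lay below it, 3 of them at 0) and taken to log2 without rescaling. No test used the 62 control probe sets. Of the others, 41091 carried 1 gene symbol, 1801 several and 11721 none; 99.9% of Entrez identifiers matched RefSeq (GRCh38.p14). Probe sets above the array median (50th percentile) on at least 3 arrays were kept, which left 29166, and the brightest 1-symbol probe set stood for each gene.

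Differences were fitted with limma 3.58.1 in R 4.3.3, with 1 mean per group over all 9 arrays and an intensity trend. The test was two-sided, and a gene was called when its p was under 0.05 after Benjamini-Hochberg adjustment across the 13598 genes. Every adjusted p in the text is from limma. The number of arrays limits the precision. Log2 differences of dim genes shrink when a constant is added to the signal.

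Named genes were, among genes with separated groups not called between the lines, the 10 with the largest difference in each direction. To these came the 5 in each direction called in both contrasts, and called members of 36 gene lists. Members and lists were chosen with earlier results of these data known. Alternatives were other filters, scalings, offsets (32), probe set rules, array weights, a replicate block, the lines as 1 group, and each array left out in turn. Scripts were tested on simulated data. Figures were drawn with matplotlib 3.10.9.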

Additional observations from a re-analysis of the deposited data

Results flagged for a closer look

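Of the genes called against the parent, 38 also differed between SCP51 and SCP58 when the difference between the lines was itself tested (limma). Among the named genes the difference SCP51 minus SCP58, in log2 units, was 1.76 for HOXB8, 1.45 for GLIS3, 1.33 for EFNA5, 2.93 for CYP24A1, 0.88 for INPP4B, 0.68 for CRIM1, 0.66 for HOXB4, 1.32 for DCLK1 and 2.79 for SEMA3A. It was -2.30 for VSNL1, -1.86 for S100A14, -2.36 for MARCKS, -1.41 for PPP1R16A and -1.78 for NSMCE1-DT. In each of these 14 genes SCP51 was the line farther from the parent.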

How the results depend on the processing

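The main counts were 87 genes for the lines against the parent, 555 for SCP51 against SCP58 and 38 for both. With array weights they were 1306, 1527 and 367. With array weights and without SCP51 replicate 1, chosen after seeing the data, they were 1463, 1595 and 402. The weights ran from 0.17 for SCP51 replicate 1 to 5.23 for SW480/EGFP replicate 3. At an adjusted p under 0.01 the counts were 25, 124 and 9, and with a difference of at least 1 log2 unit they were 36, 197 and 16. With every probe set by itself, SCP51 and SCP58 differed in 884. With the 6 line arrays as 1 group, 14 genes were called against the parent, and 7 with the line as a random block. Leaving out each array in turn gave 16 to 203 genes for the lines against the parent, 137 to 1189 between the lines and 11 to 109 for both. With the replicate number as a block the counts were 25, 210 and 10. Replicate numbers showed no sign of pairing the arrays: deviations of same-numbered arrays correlated at -0.22 to 0.13, over 0.1 in 1 of 9 pairs. Those of arrays with different numbers correlated at -0.12 to 0.12. With 3 arrays per group these values cannot exclude a pairing. The cause of these changes was not tested. Of 806 combinations of a named gene with an alternative, 583 kept direction and call, 223 kept the direction and lost the call, and 0 changed sign. The limits are the 2 lines, the 3 arrays per group and the choice of 1 probe set per gene.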

Other observations

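Large differences were often not calls. Of 28 genes in which the lines and the parent differed by at least 2 log2 units, 18 were not called, and in 16 of these the groups overlapped. KLRF1, a natural killer cell receptor, was at 12.52, 12.43 and 12.41 in SCP51 and 12.40, 12.47 and 12.46 in SCP58, but at 3.81, 3.66 and 12.50 in the parent. NTRK2, a neurotrophin receptor, was at 9.25, 2.60 and 9.30 in SCP51 and 2.41, 9.04 and 2.33 in SCP58, and ZNF542P was at 9.89, 2.79 and 1.81 and at 9.53, 1.56 and 9.70. In these genes replicates of 1 group fell at either of a high and a low level. They were chosen after their values were seen, and which level belongs to the cells was not tested.

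Probe sets with no gene symbol were tested in a fit of all 29166 probe sets. Of 3506, 4 were called (0.114%), against 118 (0.405%) over all 29166. Of these 4, probe set 216462_at fell by 4.93 ± 0.38 (adjusted p = 0.000926), with differences of -4.71 in SCP51 and -5.15 in SCP58. Its size exceeds that of every called gene, and it was not named here.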
